A study of Mus musculus with 10 samples.

Results

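The genes of the RUNX transcription factors and their partners were examined, namely Runx1, Runx2, Runx3, Cbfb and Runx1t1. They were chosen by symbol, and all 5 were found among the 55487 genes of the count tables. Nuclear RNA had been sequenced from the mouse ES line HM-1 and from cells that arise when it differentiates toward blood in serum. The series holds 5 stages with 2 libraries each, 10 in all. ES cells were kept on gelatin with LIF. HB cells (hemangioblasts) were taken as FLK1+ cells from embryoid bodies formed over 3 days without LIF. The last 3 stages were sorted from a blast culture of HB cells to which VEGF, IL-6 and D4T conditioned medium had been added. HE1 cells (the first stage of hemogenic endothelium) carried KIT and TIE2 but no CD41, HE2 cells (the second stage) carried all 3 of these surface proteins, and HP cells (hematopoietic progenitors) carried KIT and CD41 but no TIE2. All stages come from 1 cell line, no gene was altered by design, and HE1, HE2 and HP differ by the gates applied to the same kind of culture. The study calls the replicates of this RNA-seq biologically independent, and no label says whether they come from separate differentiations.

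RUNX proteins bind DNA through the Runt domain, and CBFB, which does not itself bind DNA, joins each of them and strengthens its binding. RUNX1 is required for blood cells to form from the hemogenic endothelium. RUNX2 is the regulator of bone formation, and RUNX3 acts in T cells, sensory neurons and epithelia. RUNX1T1, also known as ETO or MTG8, is a corepressor without a Runt domain, known as the fusion partner of RUNX1 in acute myeloid leukemia. CBFA2T2 and CBFA2T3 are its paralogues.

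The genes lie apart in the mm10 genome. Runx1 spans chr16:92601466-92826149 on the minus strand, Runx2 chr17:44495987-44814797 on the minus strand, Runx3 chr4:135120652-135177990 on the plus strand, Cbfb chr8:105170674-105217989 on the plus strand and Runx1t1 chr4:13743436-13893649 on the plus strand. Each RUNX gene is known to have a distal promoter (P1) and a proximal one (P2). In the GENCODE release 21 annotation the starts of the coding transcripts of Runx1 are spread over 130.654 kb, those of Runx2 over 80.104 kb, those of Runx3 over 31.844 kb, those of Runx1t1 over 41.346 kb and those of Cbfb over 0.271 kb. The counts are sums over the exons of a gene, so that transcripts from P1 and P2 were not told apart.

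The distal promoters of the 3 RUNX genes share a stretch of letters. It is shown here because it is a feature that sets the RUNX genes apart from Cbfb and was not used to choose them. Windows of 250 bases before and 50 bases after a transcript start (RefSeq, GRCm38.p6) were searched for ACCACA, the core to which RUNX proteins bind, on both strands. The longest run of letters common to the 3 distal windows was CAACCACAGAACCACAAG, of 18 bases, which holds the core in 2 copies and was sought after the windows had been seen. Each line that follows gives 28 bases of the strand of the gene, with both copies of the core in capitals.
Runx1, chr16:92826026-92826053, minus strand: ataaacaACCACAgaACCACAagttggg
Runx2, chr17:44814584-44814611, minus strand: acaaacaACCACAgaACCACAagtgcgg
Runx3, chr4:135120504-135120531, plus strand: tccctcaACCACAgaACCACAaggccag
The doubled core begins at base 29 of the transcript in Runx1 and at base 24 in Runx2, counted from 1 at the start, and 134 bases upstream of the start in Runx3. The run of 18 bases was found on either strand in 4 of the 32851 promoter windows (0.0122%). The other window belongs to Gm16225, which faces Runx3 on the opposite strand and holds the same 28 bases. The single core was found in 16.8% of all windows, with 2 matches in the distal window of Runx1, 3 in that of Runx2 and 2 in that of Runx3, and with 0 in the proximal windows of Runx1 and Runx3 and 0 in the window of Cbfb. Runx2 has only the 1 window, so that its proximal promoter was not searched, and Runx1t1 has none. These matches are letters only, and no binding was measured here.

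Levels were expressed as CPM, the counts of a gene scaled to the size of its library with TMM factors, and stages were compared with the quasi-likelihood F test of edgeR fitted to all genes and libraries. A gene passed at an adjusted p-value under 0.05 (Benjamini-Hochberg over 22596 tested genes, all 5 members included), log2 fold changes are given ± SE, and a fold change is the later over the earlier stage. The libraries held 24920434 to 58782055 counts, and 3 counts, used as a floor, correspond to 0.0510 to 0.120 CPM. Marker sums were highest in the stages where the labels place them, but not all were confined there. The summed CPM of 5 pluripotency markers was 2514 and 2453 in ES, 396 and 425 in HB and at most 66.7 in HE1, HE2 and HP. That of 5 endothelial markers was 2902 and 1719 in HE1, 1750 and 955 in HE2 and at most 488 elsewhere. That of 5 blood progenitor markers was 1225 to 1663 in HE2 and HP, 652 and 432 in HE1 and at most 200 in ES and HB. That of 5 hemangioblast mesoderm markers was 1427 and 1750 in HB, 1277 and 733 in HE1, and 936 and 635 in HE2. From HB to HE1, 4 of these 5 fell (T, Mesp1, Pdgfra and Etv2), whereas Kdr, which encodes FLK1, did not pass (mean 1120 and 991 CPM). HE1 replicate 2 stood apart from HE1 replicate 1, with 66.7 against 6.47 summed CPM of pluripotency markers, 998 against 631 of cardiac and smooth muscle markers, and 835 against 359 of skeletal and fibroblast markers. In sorted populations, fewer cells of a type and less RNA per cell cannot be told apart.

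Runx1 rose in 2 steps, first between ES and HB and again between HE1 and HE2. Its level was 2.77 and 2.81 CPM in ES and 73.7 and 84.6 CPM in HB. The HE1 libraries had 52.3 and 58.6 CPM, those of HE2 295 and 519, and those of HP 522 and 412. The libraries of HB, HE1 and HE2 did not overlap with those of the stage before, whereas those of HE2 and HP did. From ES to HB the log2 fold change was 4.83 ± 0.29 (28.4-fold, edgeR adjusted p = 1.3e-06). From HB to HE1 it was -0.51 ± 0.24 (adjusted p = 0.12), with both HE1 libraries below both HB libraries. From HE1 to HE2 it was 2.87 ± 0.25 (7.33-fold, adjusted p = 0.00039), and from HE2 to HP 0.20 ± 0.23 (adjusted p = 1.0). Between ES and HP the level of Runx1 differed 167-fold (log2 7.39 ± 0.32, adjusted p = 1.4e-07).

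The order of the Runx1 levels was thus ES, HE1, HB, HE2 and HP, in which the neighbours HE1 and HB and the neighbours HE2 and HP did not differ by the test. The difference between HB and HE1 depended on the fit. It passed with no filter on low counts (adjusted p = 0.022), with only the 4 libraries of both stages (0.047), without HE2 replicate 1 (0.030) and without HE2 replicate 2 (0.030), and not in the other 14 of 18 alternatives. Without HE2 replicate 1, whose Runx1 level was the lower one of its stage, the log2 fold change from HE2 to HP was -0.15 (adjusted p = 0.93). The rise from HE1 to HE2 passed in each of the 18 alternatives, including the fit without HE1 replicate 2. The summed CPM of the primitive erythroid markers Hba-x, Hbb-bh1, Hbb-y and Klf1 was 6.48 and 7.18 in HB and 526 and 255 in HE1, a step in which Runx1 did not rise. It was 2139 and 1644 in HE2, where replicate 2 had the lower sum and the higher Runx1 level, and 4607 and 2342 in HP. The part of these markers in the Runx1 level was not tested.

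**Figure D1:**
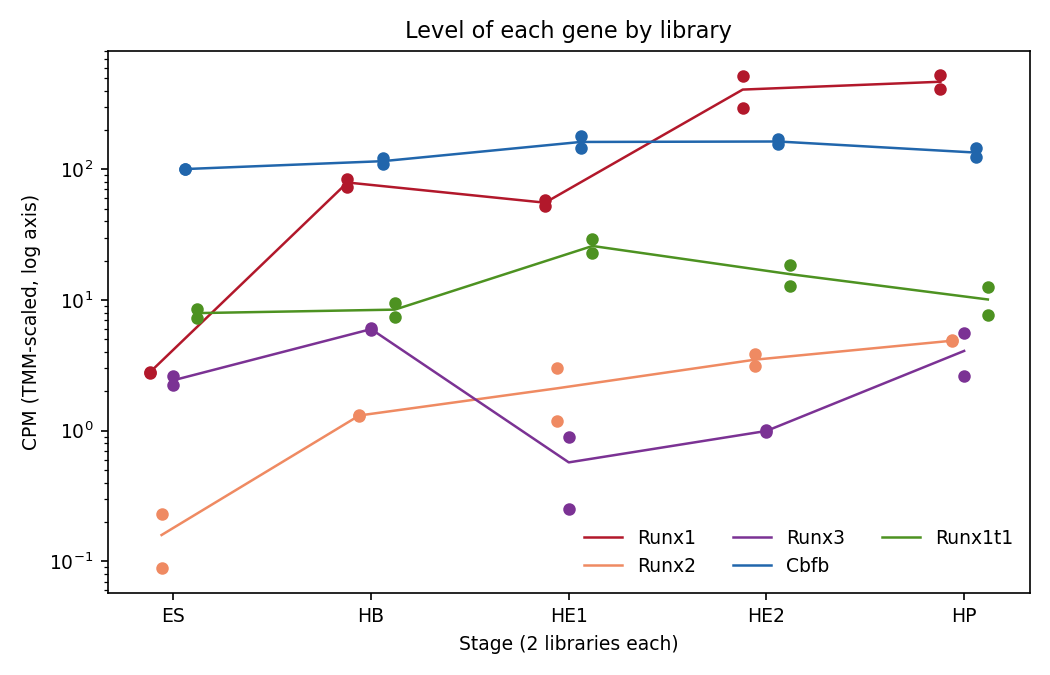
CPM of the 5 genes in each library (points, log axis) at the 5 stages, with lines through the mean of the 2 libraries of a stage. Runx1 climbs from 2.77 and 2.81 CPM in ES to 295 to 522 CPM in HE2 and HP, Cbfb stays between 100 and 178 CPM, and Runx3 is lowest in HE1.

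Runx2 was detected at a low level and rose between ES and HB. It had 5 and 8 counts in the ES libraries and 28 to 216 in the others. Its level was 0.0886 and 0.229 CPM in ES and 1.29 and 1.32 CPM in HB. The HE1 libraries had 1.18 and 3.04 CPM, those of HE2 3.11 and 3.87, and those of HP 4.92 and 4.83. Each later library lay above both ES libraries, and the HE1 libraries lay on either side of those of HB. Runx2 reached the filter on low counts (10 counts at the median library size, in 2 libraries) only after ES, through the stages where it was higher. The log2 fold change from ES to HB was 3.10 ± 0.60 (8.57-fold, edgeR adjusted p = 0.0021). It was 2.50 (5.67-fold) without ES replicate 1 and 3.84 (14.3-fold) without ES replicate 2, and passed in both fits (adjusted p = 0.029 and 0.0047). None of the later steps passed, with values of 0.70 ± 0.49 in HE1 over HB, 0.72 ± 0.48 in HE2 over HE1 and 0.48 ± 0.47 in HP over HE2 (adjusted p = 0.30, 0.30 and 0.99). Without 1 library these values ranged from -0.15 to 1.17, from 0.23 to 1.56 and from 0.33 to 0.65. Over more than one step, HP exceeded HB 3.73-fold (log2 1.90 ± 0.49, adjusted p = 0.014). This did not pass without HB replicate 1 (log2 1.85) or HB replicate 2 (1.91). The step from HB to HE2 was 1.41 ± 0.49 (adjusted p = 0.053). It passed in 6 of 18 alternatives, among them limma-voom (adjusted p = 0.038), DESeq2 (0.031), no filter on low counts (0.014) and only the 4 libraries compared (0.026).

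In the order ES, HB, HE1, HE2 and HP, only the neighbours ES and HB differed for Runx2 by the test. The HE1 level rests on replicate 2, since without it the log2 fold change from HB to HE1 was -0.15 (adjusted p = 0.87). Of 10 genes of the skeletal program that RUNX2 is known to drive, 5 were tested. Ibsp, the gene of bone sialoprotein, had no count in any library, and Bglap, Bglap2, Col10a1 and Mmp13 were too low to be tested. Alpl, an alkaline phosphatase that ES cells also express, had 183 and 190 CPM in ES and at most 0.684 in HE2 and HP, and fell between HE1 and HE2 (log2 -2.90 ± 0.64, edgeR adjusted p = 0.022). Spp1, which encodes osteopontin, had 414 and 425 CPM in ES, 2.19 and 5.48 in HE1, and 19.0 and 9.80 in HE2, a rise of 1.89 ± 0.49 (adjusted p = 0.034). Without HE1 replicate 2 the fall of Alpl was smaller (-1.36, adjusted p = 0.15), whereas the rise of Spp1 was larger (2.72) and just missed the threshold (0.052). With limma-voom the adjusted p-values were 0.069 and 0.060, and Alpl did not pass without HE2 replicate 2 (-2.53, 0.17). Spp1 also missed the threshold without HE1 replicate 1 (1.42, 0.072), without HE2 replicate 1 (1.35, 0.086), with total counts (0.065) and when the fit held no stage but HE1 and HE2 (0.077). Alpl missed it in this last fit too (0.092).

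Runx3 followed another course than Runx1, with a fall between HB and HE1. Its level was 2.62 and 2.24 CPM in ES and 5.88 and 6.08 CPM in HB. The HE1 libraries had 0.252 and 0.891 CPM, those of HE2 0.974 and 1.02, and those of HP 5.54 and 2.61. Only 6 counts in HE1 replicate 1 and 27 in HE1 replicate 2 fell on the gene. From HB to HE1 the log2 fold change was -3.34 ± 0.56 (0.0986-fold, edgeR adjusted p = 0.0015), and the libraries of both stages lay far apart. Without HE1 replicate 2 it was -4.54 (0.0429-fold, adjusted p = 0.0012). HE1 was also below ES (-2.05 ± 0.55, adjusted p = 0.0093), by -3.25 without HE1 replicate 2 (0.0030), and this difference did not pass when only ES and HE1 were fitted (0.052). From HE1 to HE2 the value was 0.76 ± 0.56 (adjusted p = 0.34), and it ranged from 0.18 to 1.96 without 1 library.

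Runx3 was higher again in HP than in HE1 (6.93-fold, log2 2.79 ± 0.55, edgeR adjusted p = 0.0053), with 16.0-fold without HE1 replicate 2 and 4.49-fold without HP replicate 1 (adjusted p = 0.0041 and 0.043). The step from HE2 to HP alone was 2.04 ± 0.52, with adjusted p = 0.20 and an unadjusted p of 0.0027, and both HP libraries lay above both HE2 libraries. Without 1 library this step ranged from 1.38 to 2.47. It passed with DESeq2 (adjusted p = 0.0098) and with no filter on low counts (0.00090), and not in the other 16 alternatives. From ES to HB the value was 1.30 ± 0.49 (adjusted p = 0.057), which passed in 8 of 18 alternatives, among them limma-voom (0.020), DESeq2 (0.034) and the fit without HE1 replicate 2 (0.018). The order of the Runx3 levels was HE1, HE2, ES, HP and HB, in which no pair of neighbours differed by the test in the fit to all libraries.

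Cbfb, the gene of the shared partner, varied little. It had 101 and 100 CPM in ES and 110 and 121 CPM in HB. The HE1 libraries had 178 and 145 CPM, those of HE2 156 and 170, and those of HP 144 and 124. The lowest and the highest stage mean, 100 ± 0.527 CPM in ES and 163 ± 9.47 CPM in HE2 (SD, n = 2), differed 1.63-fold (log2 0.70 ± 0.15, edgeR adjusted p = 0.0028). Both ES libraries lay below every other library. Among the consecutive steps only that from HB to HE1 passed, at 0.49 ± 0.15 (1.40-fold, adjusted p = 0.030), and it no longer passed in the fits without ES replicate 1 (0.097), ES replicate 2 (0.098), HB replicate 1 (0.23), HB replicate 2 (0.12) or HE1 replicate 1 (0.18), or with a replicate block (0.052). The values of the other steps were 0.20 ± 0.15 in HB over ES, 0.01 ± 0.15 in HE2 over HE1 and -0.28 ± 0.15 in HP over HE2 (adjusted p = 0.32, 0.97 and 0.76). The order was ES, HB, HP, HE1 and HE2, in which no neighbours differed by the test.

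Runx1t1 was highest in the hemogenic endothelium. Its level was 7.29 and 8.57 CPM in ES and 7.40 and 9.46 CPM in HB. The HE1 libraries had 29.0 and 22.7 CPM, those of HE2 18.6 and 12.9, and those of HP 7.62 and 12.6. Both HE1 libraries lay above the libraries of the 4 other stages, and those of ES and HB overlapped. The log2 fold change from HB to HE1 was 1.62 ± 0.29 (3.06-fold, edgeR adjusted p = 0.0024) and that from HE1 to HP -1.36 ± 0.29 (adjusted p = 0.0074), which did not pass without HP replicate 1 (-1.03, 0.076). The steps from HE1 to HE2 (-0.72 ± 0.28, adjusted p = 0.11) and from HE2 to HP (-0.65 ± 0.29, adjusted p = 0.62) did not pass singly. HE2 exceeded HB by 0.90 ± 0.29 (adjusted p = 0.038), but not with a replicate block (0.051), with total counts (0.059) or without any 1 library of ES, HB or HE2 replicate 1 (0.061 to 0.25). The summed CPM of the endothelial markers Cdh5, Pecam1, Tek, Esam and Emcn had its highest stage mean in HE1 as well, with 2902 and 1719 against 1750 and 955 in HE2, so that the libraries of both stages overlapped, and 436 and 488 in HP, and their part in the Runx1t1 level was not tested. In the order ES, HB, HP, HE2 and HE1 no neighbours differed by the test.

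**Figure D2:**
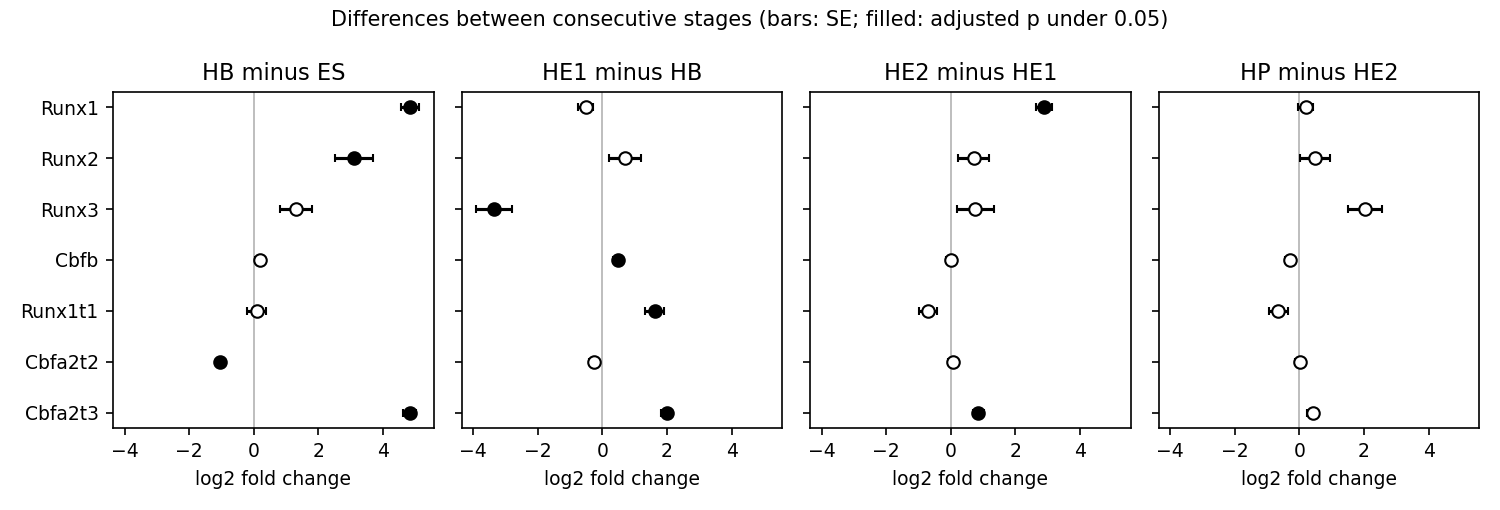
Log2 fold change (later minus earlier stage, bars are SE) of the 5 genes and of Cbfa2t2 and Cbfa2t3 in the 4 comparisons of consecutive stages, with filled points where the adjusted p was under 0.05. Runx1 passes in HB against ES and HE2 against HE1, Runx3 falls by 3.34 in HE1 against HB, and no gene passes in HP against HE2.

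The number of members that passed has to be read against that of all genes. From ES to HB 2 of 5 passed, both higher, against 40.4% of all tested genes in either direction, and 1 of them, Runx2, was below the filter in ES. From HB to HE1 3 of 5 passed against 32.3%, with Cbfb and Runx1t1 higher and Runx3 lower. From HE1 to HE2 1 of 5, Runx1, passed against 13.2%. From HE2 to HP 0 of 5 passed against 0.0%, since edgeR called 0 of 22596 genes there, with 1783 at an unadjusted p under 0.05, while limma-voom called 66 and DESeq2 465. Across the wider span from ES to HP, 3 of 5 passed (Runx1, Runx2 and Cbfb, all higher) against 51.6%, and from HE1 to HP 3 of 5 (Runx1 and Runx3 higher, Runx1t1 lower) against 24.9%. In the other pairs of stages, 5 of 5 passed in HE1 over ES (54.9% of all genes), 4 of 5 in HE2 over ES (51.3%), 4 of 5 in HE2 over HB (29.1%) and 2 of 5 in HP over HB (30.2%). Without 1 library the number that passed was 2 to 3 in HB over ES, 2 to 4 in HE1 over HB, 3 to 5 in HE2 over ES, 2 to 5 in HE2 over HB, 2 to 3 in HP over ES, 1 to 2 in HP over HB and 2 to 4 in HP over HE1, and it did not change in the other 3 pairs. With the replicate block it was 2 in HE1 over HB, 3 in HE2 over HB and 2 in HP over ES, where Cbfb (0.052), Runx1t1 (0.051) and Cbfb (0.059) no longer passed.

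To compare levels between genes, CPM were divided by the length of the union of exons (FPKM). Runx1 changed from the minor to the major RUNX gene between ES and HB. In ES it made up 31.6% ± 2.11 of the summed FPKM of Runx1, Runx2 and Runx3, Runx3 65.9% ± 3.78 and Runx2 2.49% ± 1.67 (SD, n = 2). The share of Runx1 was 83.0% ± 1.05 in HB. It was 93.1% ± 3.98 for HE1, 98.2% ± 0.506 for HE2 and 96.6% ± 0.473 for HP. Runx3 kept 15.1% ± 0.924 in HB and at most 2.21% ± 1.55 in the later stages, and Runx2 had its highest mean share in HE1, 4.65% ± 2.43, which rests on HE1 replicate 2 (6.37%), since HE1 replicate 1 (2.94%) was below ES replicate 2 (3.67%). The sum itself rose from 0.736 ± 0.0409 FPKM in ES to 7.93 ± 0.671 in HB, was 4.97 ± 0.607 in HE1, and reached 34.4 ± 13.2 in HE2 and 40.2 ± 6.93 in HP. The share of Runx1 in ES was 42.3% when the length of the longest coding transcript was used in place of the exon union, and Runx3 then still had the higher FPKM in ES (0.626 against 0.476).

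**Figure D3:**
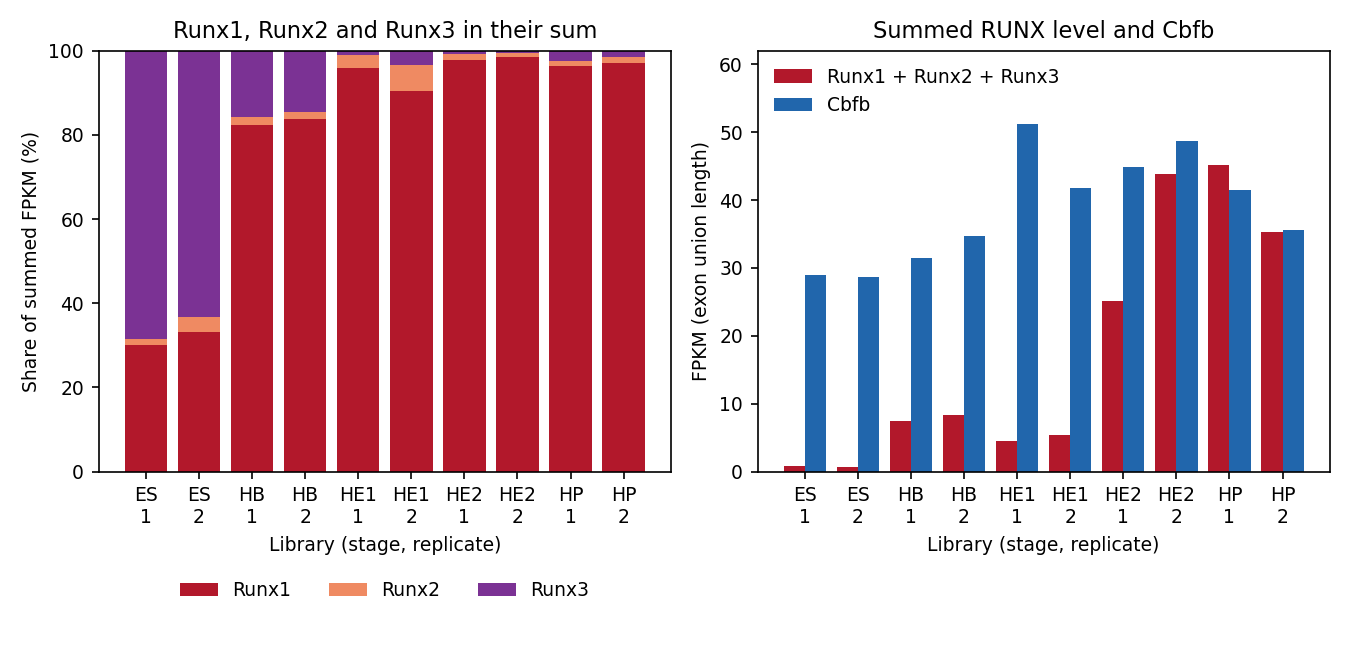
Left, share (%) of Runx1, Runx2 and Runx3 in their summed FPKM in each library. Right, summed FPKM of the 3 RUNX genes beside the FPKM of Cbfb in each library. Runx3 holds the larger share in both ES libraries and Runx1 in the 8 others. With the exon union as length, the RUNX sum approaches Cbfb in HE2 replicate 2 and in HP.

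Cbfb was the far more abundant of the partners before HE2. The FPKM of Cbfb and Runx1 were 28.8 ± 0.151 and 0.232 ± 0.00260 in ES (SD, n = 2), and 33.1 ± 2.27 and 6.58 ± 0.640 in HB. For HE1 they were 46.5 ± 6.66 and 4.61 ± 0.368, for HE2 46.8 ± 2.72 and 33.8 ± 13.2, and for HP 38.5 ± 4.14 and 38.8 ± 6.50. In HP the levels of both were therefore within the spread of each other. That they met there depends on the length used, since with the longest coding transcript (5861 bases for Runx1 against an exon union of 12025, and 2891 against 3480 for Cbfb) the means in HP were 79.7 for Runx1 and 46.4 for Cbfb. The order in HE2 depends on it as well, with means of 69.4 for Runx1 and 56.4 for Cbfb by the longest coding transcript. Nuclear RNA levels do not give the amounts of the proteins.

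The balance between the genes was compared as a log2 ratio of counts per exon base within each library (0.5 counts added), which does not depend on library scaling. Ratios were tested over the stages with an exact permutation test of the F statistic over the 945 ways to divide 10 libraries into 5 pairs, adjusted over 5 ratios. The log2 ratio of Runx1 to Cbfb was -6.95 ± 0.03 in ES and -2.33 ± 0.04 in HB (SD, n = 2). It was -3.33 ± 0.32 for HE1, -0.52 ± 0.49 for HE2 and 0.01 ± 0.09 for HP (exact permutation p = 0.0011, the smallest the design can give, adjusted p = 0.0026). The ratio of the RUNX sum to Cbfb went from -5.28 ± 0.07 in ES to 0.06 ± 0.09 in HP with the same p-values. Both HE1 libraries lay below both HB libraries in either ratio.

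The ratio of Runx1 to Runx3 rose from -1.06 ± 0.18 in ES to 2.45 ± 0.11 in HB, 5.53 ± 1.11 in HE1 and 7.33 ± 0.53 in HE2, and was 5.66 ± 0.52 in HP (SD, n = 2; exact permutation p = 0.0053, adjusted p = 0.0066). The ratio of Runx1 to Runx1t1 was -2.09 ± 0.15 in ES and 2.64 ± 0.11 in HB. It was 0.51 ± 0.36 for HE1, 4.06 ± 0.96 for HE2 and 4.97 ± 0.75 for HP (exact permutation p = 0.0021, adjusted p = 0.0035). It was thus lower in HE1 than in HB and HE2 in each library. The ratio of Runx1 to Runx2 moved least over the stages. It went from 3.74 ± 0.92 in ES to 5.46 ± 0.12 in HB and was lower again for HE1, with 4.41 ± 0.84. The values were 6.37 ± 0.35 for HE2 and 6.12 ± 0.22 for HP (exact permutation p = 0.029, adjusted p = 0.029). It did not pass when any library of HB, HE2 or HP, or ES replicate 2, was left out, with adjusted p-values between 0.055 and 0.088.

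**Figure D4:**
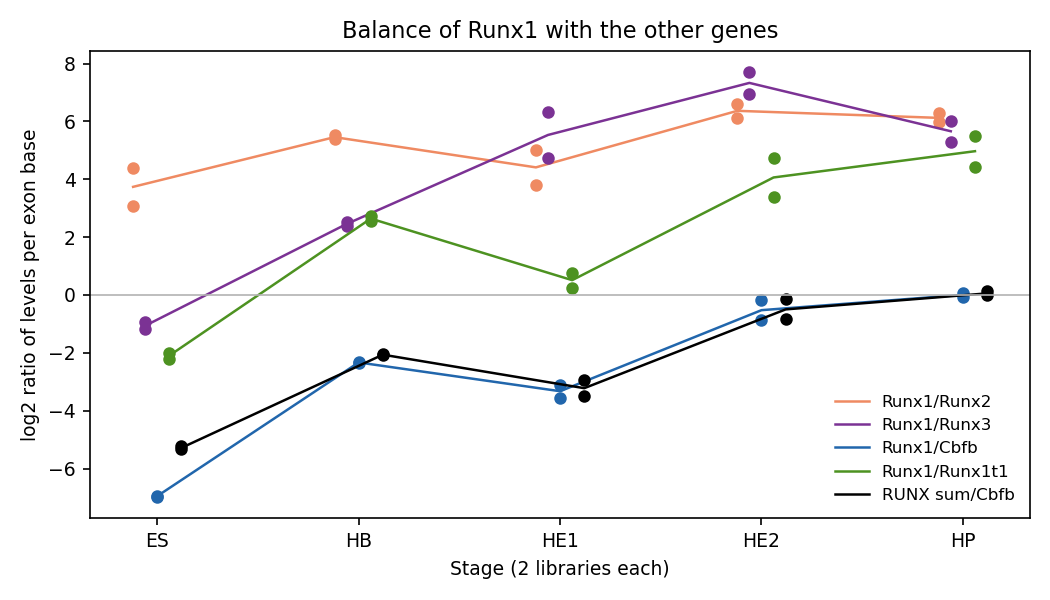
Log2 ratio of levels per exon base in each library (points) at the 5 stages, with lines through the mean of 2 libraries, for Runx1 over each of the other genes and for the RUNX sum over Cbfb. A value of 0 is an equal level per base of the exon union, which the ratio to Cbfb reaches in HP (0.01) from -6.95 in ES.

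Runx1t1 and its paralogues, the MTG corepressors, were each highest at another stage. Cbfa2t3 (ETO2), a corepressor in complexes of TAL1, had 1.44 and 1.55 CPM in ES and 40.5 and 43.9 CPM in HB. The HE1 libraries had 190 and 145 CPM, those of HE2 270 and 334, and those of HP 417 and 384. It rose from ES to HB by 4.82 ± 0.21, from HB to HE1 by 1.99 ± 0.17 and from HE1 to HE2 by 0.85 ± 0.17 (edgeR adjusted p = 4.1e-07, 3.6e-05 and 0.015). The last of these steps did not pass without HE1 replicate 2 (0.071), without HE2 replicate 2 (0.12) or with only HE1 and HE2 in the fit (0.075), and is under 2-fold. Cbfa2t2 (MTGR1) had 162 CPM in both ES libraries and 59.3 to 80.0 CPM in the 8 others, a fall of 1.04 ± 0.14 between ES and HB (adjusted p = 0.00022).

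The other cofactors moved in both directions. From ES to HB 2 of 13 tested corepressors rose and 5 fell, against 17.8% and 22.6% of all tested genes. Their median log2 fold change was -0.20 beside 0.00 over all tested genes. From HB to HE1 3 rose and 3 fell (17.5% and 14.8% of all genes), with a median of 0.28 beside 0.04. From HE1 to HE2 0 rose and 2 fell (6.12% and 7.11%), with a median of 0.24 beside -0.08. These were Tle3 (140 to 80.4 mean CPM, log2 -0.80 ± 0.16, edgeR adjusted p = 0.015) and Tle1 (41.3 to 27.3 mean CPM, -0.60 ± 0.17, adjusted p = 0.049), which encode Groucho corepressors that bind the C-terminal end of RUNX proteins. Without HE1 replicate 2 or HE2 replicate 2, 0 corepressors fell in this step, and without HE1 replicate 1, 4 rose. In the earlier steps 3 fell in HB over ES without any 1 library of ES or HB, and 1 rose in HE1 over HB without either HB library.

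Among 10 coactivators, 3 rose and 3 fell from ES to HB, against 17.8% and 22.6% of all tested genes, with a median of -0.04 beside 0.00. In HE1 over HB 2 rose and 1 fell (17.5% and 14.8% of all genes), with a median of 0.11 beside 0.04, and from HE1 to HE2 1 rose and 2 fell (6.12% and 7.11%), with a median of -0.03 beside -0.08. Hipk2, a kinase that phosphorylates RUNX1, rose from 91.6 and 80.2 CPM in HE1 to 162 and 197 in HE2 (1.06 ± 0.16, edgeR adjusted p = 0.0039) and was at 268 and 321 in HP. Yap1 fell from 247 and 203 CPM to 123 and 69.9 (-1.22 ± 0.24, adjusted p = 0.015), and Wwtr1, which encodes TAZ, from 194 and 140 CPM to 114 and 58.3 (-0.96 ± 0.28, adjusted p = 0.047). YAP and TAZ are coactivators of the Hippo pathway. Without 1 library the number that fell in HB over ES was as low as 1 (any library of ES or HB), and in HE1 over HB 0 to 2 rose (0 without HB replicate 2) and 0 to 2 fell (0 without HB replicate 2 or either HE1 library). The number of coactivators that fell in HE2 over HE1 was 1 without HE1 replicate 1 or 2, and 0 without HE2 replicate 2. In HP over HE2 0 corepressors and 0 coactivators passed.

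The partners with which RUNX1 forms the heptad of blood stem cell factors were higher in HB than in ES. From ES to HB 6 of 6 rose (Tal1, Lyl1, Lmo2, Gata2, Fli1 and Erg), against 17.8% of all tested genes, with a median log2 fold change of 5.93 beside 0.00. Lyl1, Fli1 and Erg were below the filter in ES and were tested only because they were higher later, and of the 3 that reached it in ES 3 rose. From HB to HE1 Lyl1, Fli1 and Erg rose and Lmo2 fell (17.5% and 14.8% of all genes), with a median of 0.72 beside 0.04. From HE1 to HE2 3 rose, against 6.12%, with a median of 0.56 beside -0.08. Lyl1 went from 36.6 and 21.3 CPM to 95.1 and 142 (2.04 ± 0.35, edgeR adjusted p = 0.0092). Tal1 went from 185 and 109 CPM to 277 and 374 (1.15 ± 0.24, adjusted p = 0.019), and Lmo2 from 58.7 and 37.4 to 87.5 and 82.9 (0.83 ± 0.21, adjusted p = 0.032). In the fits without HE1 replicate 2 or HE2 replicate 2, 0 of the 6 passed in this step, whereas Runx1 passed in both.

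Of 13 genes known as targets of RUNX1 in blood cells 10 were tested. Csf2 and Il3 had no count in any library, and Elane had at most 0.297 CPM. From ES to HB 6 rose and 1 fell, against 17.8% and 22.6% of all tested genes. Only 4 of the 10 reached the filter on low counts in ES, and of these 2 rose and 1 fell. In HE1 over HB 5 rose and 0 fell, against 17.5% and 14.8%, with a median log2 fold change of 1.13 beside 0.04 over all tested genes. Of the 8 that reached the filter by HB, which leaves out Csf1r and Pf4, 4 rose. From HE1 to HE2 6 rose and 0 fell, against 6.12% and 7.11%, with a median of 2.52 beside -0.08. One of the 6, Pf4, was below the filter before HE2 and so could only be tested through the stages where it was higher, and without it 5 of 9 rose, with a median of 1.59 beside -0.09 over the genes that reached the filter by HE1. In HP over HE2 the median was 0.29 beside 0.01, and 0 passed. Leaving out HE1 replicate 2 or HE2 replicate 2 changed which of the targets passed in HE2 over HE1. Another of the 6 is Itga2b, which encodes the CD41 by which HE2 was sorted from HE1, and is no finding in this step. Lineage markers moved in the same step. All 4 primitive erythroid markers rose, with the sums given above. Of 5 megakaryocyte markers (Pf4, Gp9, Gp1ba, Gp6 and Ppbp) 4 were tested and Pf4 and Gp1ba rose, with a summed CPM of 4.16 and 1.88 in HE1 and 15.0 and 17.2 in HE2. Of 5 macrophage markers (Csf1r, Adgre1, Cd68, Cx3cr1 and Mrc1) Cx3cr1 rose, while their sum was 50.5 and 25.8 in HE1 and 30.6 and 21.6 in HE2. The rise of Cx3cr1 was 13.6-fold without HE1 replicate 2 and 511-fold without HE1 replicate 1, so that its size cannot be told. Pf4 and Csf1r are also listed as targets, and the part of these cell types in the target levels was not tested.

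Among these targets Spi1, which encodes the myeloid factor PU.1, had 1.85 and 2.48 CPM in HE1 against 26.3 and 65.9 CPM in HE2 (HE2 over HE1 21.2-fold, edgeR adjusted p = 0.00069). Mpo, which encodes myeloperoxidase, went from 6.89 and 1.42 CPM in HE1 to 61.4 and 148 in HE2 (4.69 ± 0.67, adjusted p = 0.0034). Nfe2, which encodes a factor of megakaryocytes and erythroid cells, went from 10.0 and 3.83 CPM to 63.4 and 126 (3.79 ± 0.45, adjusted p = 0.0013). Pf4, which encodes platelet factor 4, had 1 and 0 counts in the HE1 libraries and 66 and 44 in those of HE2, and passed (adjusted p = 0.020), with no fold given against so few counts. It did not pass without HE1 replicate 2 (0.13) or HE2 replicate 2 (0.060). The size of the other changes also rests on single libraries, with 12.2-fold for Spi1 without HE2 replicate 2, log2 values of 6.23 without HE1 replicate 1, 3.92 without HE1 replicate 2 and 3.93 without HE2 replicate 2 for Mpo, and 4.65 without HE1 replicate 1 for Nfe2, and all of these passed. Runx1 was higher in HE2 replicate 2 than in HE2 replicate 1, and so were 4 of the 10 tested targets (Spi1, Gfi1b, Nfe2 and Mpo), while the other 6 were lower there. Of the 7 tested targets with a promoter window, 0 held the ACCACA core in their 8 windows, beside 13.0% of the windows of tested genes. Over all listed targets 1 of 11 windows held it (9.09%), beside 16.8% of all windows. So few windows cannot show a difference from these shares, and sites outside the windows were not searched.

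**Figure D5:**
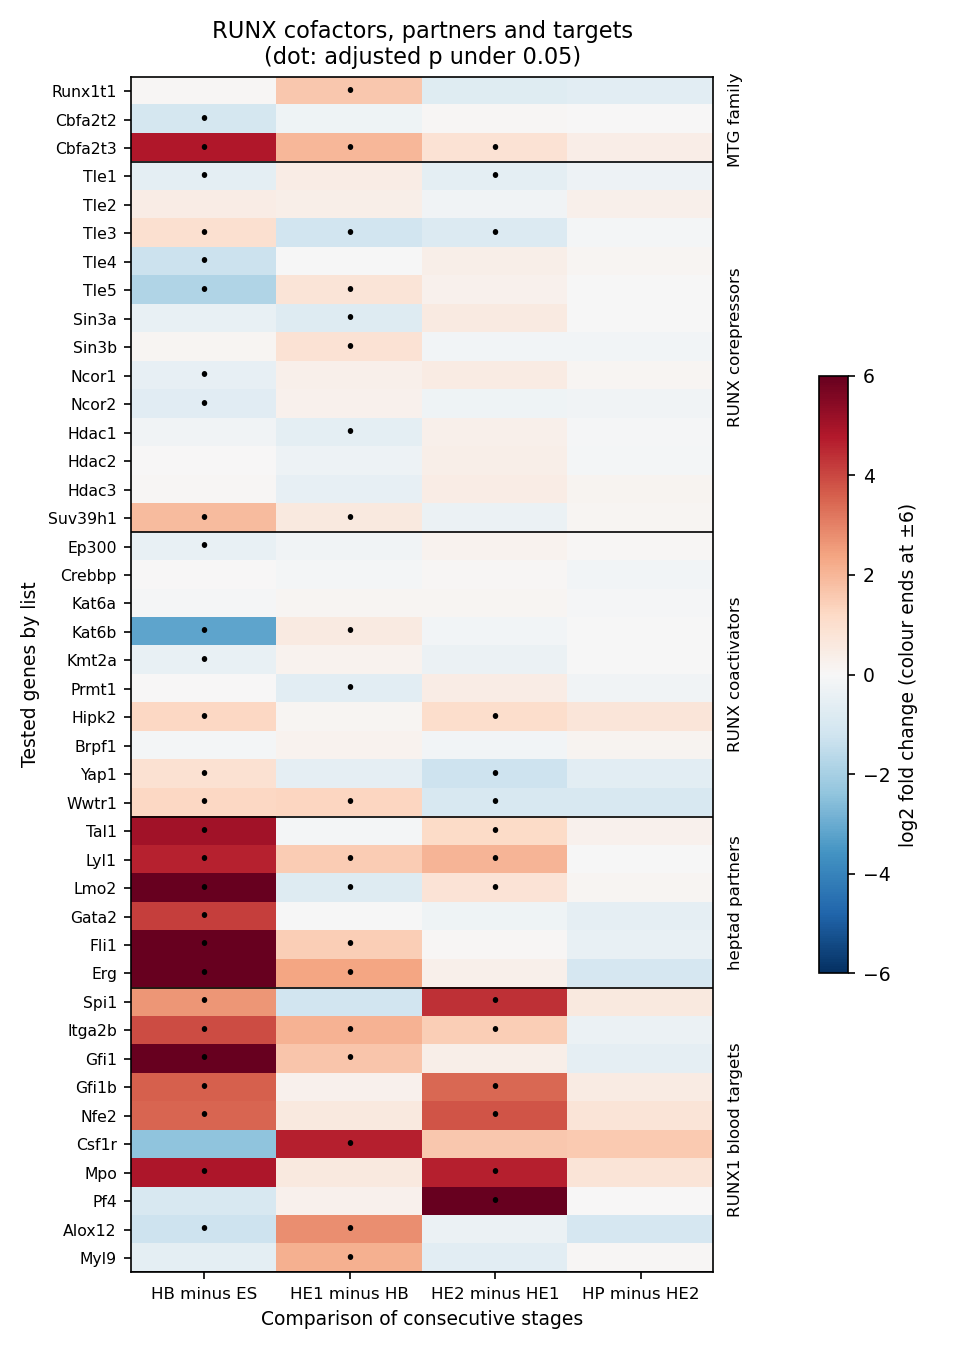
Log2 fold change in the 4 comparisons of consecutive stages (colour) of each tested gene of the MTG family, the corepressors, the coactivators, the heptad partners and the RUNX1 blood targets, with a dot where the adjusted p was under 0.05. All 6 heptad partners carry a dot in HB against ES and 6 targets in HE2 against HE1, and no dot stands in HP against HE2.

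The genes most like each member were found by Pearson's r of log2 CPM over the 10 libraries, among 16278 other genes with a mean of at least 1 CPM. The libraries share stages, so these values describe the pattern and carry no test. Those most like Runx1 were Tgfb1, Cited2, Pde5a, Ptpre and Grap2 (r of 0.996 to 0.989). For Runx2 they were Scly, Gm28112, Zkscan6, Senp7 and Ncbp3 (0.984 to 0.972), for Runx3 Nsun4, Plppr3, Kif21a, Btbd17 and Eml2 (0.968 to 0.931), for Cbfb Vps36, Dpagt1, Gm45799 and Septin2, which is listed under 2 identifiers (0.989 to 0.974), and for Runx1t1 Gpm6a, Plekhm3, Plekha3, Rsc1a1 and Ptk2 (0.991 to 0.967). Within the family, Runx1 was most like Runx2 (r = 0.958) and Cbfa2t3 (0.950), which ranked only 158 and 233 among the 16278 genes. It was less like Cbfb (0.666) and Runx1t1 (0.248), near 0 with Runx3 (-0.00374) and most unlike Cbfa2t2 (-0.876). Runx3 and Runx1t1 ran against each other (r = -0.889).

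The neighbours of the members in the genome were also examined. Clic6, 60.2 kb from Runx1, rose with it from 1.68 and 1.55 CPM in ES to 26.3 and 26.6 in HB (log2 4.03, edgeR adjusted p = 3.1e-05), and had 10.1 and 5.68 CPM in HE2. Setd4, on the other side of Runx1 at 757 kb, had 21.8 to 23.7 CPM in ES and 5.68 to 7.69 in HE2 and HP. The nearest tested genes outside the members were Clic5 and Cdc5l for Runx2, Syf2 and Clic4 for Runx3, Gm3830 and D230025D16Rik for Cbfb, and Gm11826 and Gm11824 for Runx1t1. Gm22063 and Gm24629 lie within Cbfb on the same strand and were at most 2.34 and 1.32 CPM. Each of the 3 RUNX genes thus has a member of the chloride channel family Clic as a neighbour. Genes that overlap a member on the opposite strand were Gm26626 in Runx1, Runx2os1, Runx2os2, Runx2os3 and Supt3 in Runx2, and Gm16224 in Runx3. Of these Supt3 had 8.31 to 18.9 CPM, and the others at most 0.222. Counting used strand, and no gene shares exon bases with a member on the same strand.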

How the data were processed

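Nuclear RNA-seq of 10 libraries was analysed. The authors aligned reads by HISAT2, v2.2.1, on the mm10 build and, per the file headers, counted read pairs on Ensembl 102 exons with featureCounts (v2.0.1), reverse-stranded, a pair that overlapped several genes being counted on each. The deposited counts are not normalized. The authors' matrix holds 1 expression score per stage, a normalized mean. Its gene symbols served to name genes and to find the members, and its values were used only for levels and shares per length. Counts were tested in R (v4.3.3) by edgeR (v4.0.16), after filterByExpr and TMM, with stage as the only term and 5 residual degrees of freedom. The SE is the log2 fold change divided by the root of F. Alternatives were limma-voom (v3.58.1), DESeq2 (v1.42.0), total counts, no filter, the 4 libraries compared, a replicate block, library sizes without the top 20 genes, a 2-fold minimum and each library left out. For ratios they were 2 added counts and a prior count of 2. The longest coding transcript, and counts of list genes that reached the filter by the earlier stage, were added after the data had been seen. Python (v3.11.15) was used for the rest. Log2 CPM used a prior count of 2. The floor of 3 counts covers counting error only. The members, lists and tests were chosen with earlier results of these data known. Named were the members, the MTG family, up to 4 genes of each other list with the largest change among those passing in HE2 over HE1, the 5 most alike genes, and neighbours. From the lists 2 genes were left out afterwards, for a reason unrelated to their values, and are not reported here. Scripts were tested on simulated data.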

Additional observations from a re-analysis of the deposited data

How the results depend on the processing

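Of the 504 values of the 5 members, Cbfa2t2 and Cbfa2t3 under 18 alternatives, 465 kept direction and side of the threshold in the consecutive steps, as did 490 of 540 values of the 5 members over the wider pairs of stages. The change of Runx1 from HB to HE1 passed with no filter (-0.52) and with only the 4 libraries compared (-0.49), and its values without 1 library ranged from -0.67 to -0.45. From HE2 to HP they ranged from -0.15 to 0.67 for Runx1, so that the direction turned. Reversed values, none of which passed, were -0.075 with total counts and -0.13 to 0.19 without 1 library for Cbfb and -0.024 and -0.068 to 0.23 for Cbfa2t2 in HE2 over HE1, -0.15 to 1.17 for Runx2 in HE1 over HB, -0.094 to 0.28 for Runx1t1 in HB over ES, and -0.071 to 0.094 for Cbfa2t2 in HP over HE2. Runx1t1 ranged from -0.055 to 0.66 in HP over ES and from -0.14 to 0.57 in HP over HB, the lowest being without HP replicate 2. The HP minus ES difference of the log2 ratio of Runx1 to Runx2 was 2.38 and ranged from 1.74 to 3.03 without 1 library, where it no longer passed in 7 of 10. With the longest coding transcript the Runx1 share was 42.3% in ES, 88.5% in HB, 98.8% in HE2 and 97.8% in HP. The cause of these differences was not tested. Of 1044 list counts 125 moved by more than 1.5 times. Of the 5 genes most like Runx1, 1 was among the first 50 by Spearman's rho and 2 without the ES libraries.

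The correlation of replicate differences between stages ranged from -0.316 to 0.213. Whether libraries with the same replicate number share a culture cannot be told from these values. A shared culture and the make-up of the sorted cells both enter a replicate difference. With the replicate block Cbfb in HE1 over HB (adjusted p = 0.052) and HP over ES (0.059) and Runx1t1 in HE2 over HB (0.051) no longer passed, the other member calls over the 10 pairs of stages and the ratio calls did not change side, and Runx1 was at 4.82 in HB over ES and 2.86 in HE2 over HE1. The level of Runx2 in ES rests on 5 and 8 counts and that of Runx3 in HE1 on 6 and 27, and the size of change that such counts could show was not tested.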
